A study of Mus musculus with 6 samples.

Results

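The 9 genes described here encode enzymes that turn squalene epoxide into cholesterol: *Lss*, *Cyp51*, *Tm7sf2*, *Msmo1*, *Nsdhl*, *Hsd17b7*, *Ebp*, *Sc5d* and *Dhcr7*. They were picked by symbol from the 55492 genes listed for bulk RNA-seq of brain cells that carry the O4 antigen, and all 9 were found. O4 is a lipid on late oligodendrocyte progenitor cells (OPCs) and immature oligodendrocytes. The cells were taken from whole brains of 16-day-old (P16) mice with antibody-coated magnetic microbeads, and 3 wild-type (WT) samples were compared with 3 Npc1-/- samples that received no treatment. Npc1-/- mice lack functional NPC1, the lysosomal protein that passes cholesterol from endocytosed lipoproteins on to the rest of the cell. Per the study's methods the allele is Npc1nih, carried in F1 hybrids of BALB/cJ and C57BL6/J parents, so the loss is in every cell of the mouse and not in the oligodendrocyte lineage alone. The comparison asks how the cells' own sterol synthesis genes stood when that supply was blocked.

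Cholesterol is made in the endoplasmic reticulum from acetyl-CoA through mevalonate to squalene, and the steps after squalene close the rings and trim lanosterol to cholesterol. When sterol in that membrane is low, the SREBP transcription factors are released and raise transcription of nearly the whole pathway. The brain makes its own cholesterol, since lipoproteins do not cross into it from blood, and myelin formation needs much of it. Blocking *Cyp51*, *Tm7sf2* or *Ebp* in OPCs is known to pile up unsaturated sterol intermediates and to favour oligodendrocyte formation.

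All 9 enzymes had a higher mean in Npc1-/- than in WT cells, by ratios of 1.18 (*Ebp*) to 1.47 (*Hsd17b7*). In 8 of the 9, the lowest Npc1-/- sample exceeded the highest WT sample, which was true of 13.3% of the 15245 genes tested. None of the 9 passed the threshold of limma (a Benjamini-Hochberg p, taken over all genes, under 0.05 with a log2 change of 0.1 or more either way). By that rule 0.813% of all genes were called in either direction and 0.400% were called as higher. At an unadjusted p below 0.05, 8 of the 9 were higher, against 10.6% of all genes tested. The direction rests on scaling between libraries. Without it, 0 of 9 had every Npc1-/- sample above every WT sample, which was true of 2.58% of all genes.

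The genes lie on 8 chromosomes of GRCm38 (GENCODE M21). *Lss* is at chr10:76531588-76557138 on the plus strand, *Cyp51* at chr5:4081145-4104746 on the minus strand and *Tm7sf2* at chr19:6062821-6068373 on the minus strand. *Msmo1* is at chr8:64718139-64733792 (minus), *Nsdhl* at chrX:72918557-72958514 (plus) and *Hsd17b7* at chr1:169949535-169969241 (minus). *Ebp* is at chrX:8185329-8193512 (minus), *Sc5d* at chr9:42251595-42264256 (minus) and *Dhcr7* at chr7:143823145-143848410 (plus). *Nsdhl* and *Ebp* are thus X-linked. *Lss* overlaps 4930483K19Rik and *Cyp51* overlaps *Akap9* on the opposite strand, and *Tm7sf2* overlaps *Vps51* on the same strand. Whether fragments were assigned by strand is not given in the sources used here, so reads in these overlaps cannot be told apart.

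Stretches of sequence around the starts of the genes are shown as features that the choice of the 9 genes did not use. The 250 bases before each RefSeq start were searched on both strands for 5 sets of letters. CCAAT is the box that NF-Y binds, GGGCGG the one that Sp1 binds, and CACGTG an E-box. TCACNCCAC and TCACNNCAC are forms of the sterol regulatory element that SREBP binds, the second including the first. All 9 genes had a window, 11 in all since *Dhcr7* had 3. CCAAT was in 9 of 9 genes, against 37.5% of the 27025 genes with a window. Here and below, the shares of all genes were not limited to genes expressed in these cells, whereas all 9 members were expressed. One CCAAT of each gene follows, as 29 bases read 5′ to 3′ on the strand where the box reads CCAAT, which stands in capitals (RefSeq, GRCm38.p6). The stretches of *Cyp51*, *Tm7sf2*, *Msmo1* and *Dhcr7* lie before a RefSeq start but overlap an exon of the same gene in GENCODE M21, which has transcripts that begin further upstream, while the other 5 lie outside the exons of their gene.
Lss, chr10:76531531-76531559, minus strand: atgcgagctcggCCAATcagagcatcacc
Cyp51, chr5:4104710-4104738, minus strand: cgctgtccgccaCCAATctggtcctgaga
Tm7sf2, chr19:6067881-6067909, plus strand: ccagcacagtagCCAATcagcgctgggag
Msmo1, chr8:64733722-64733750, minus strand: ccatccgcgcagCCAATgactggcgccgc
Nsdhl, chrX:72918400-72918428, minus strand: ttcgttcccaaaCCAATgggaagcgggct
Hsd17b7, chr1:169969354-169969382, plus strand: agggtcctatagCCAATccaggcagtcgc
Ebp, chrX:8193666-8193694, plus strand: tagactcattagCCAATcacagaccatgt
Sc5d, chr9:42264308-42264336, plus strand: gcaggcagccggCCAATcagcagccggcg
Dhcr7, chr7:143830117-143830145, plus strand: tcactgccttcaCCAATcacaggacgcag

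In all, 16 CCAAT matches lay between 12 and 170 bases before a start, and 5 of the genes (*Msmo1*, *Nsdhl*, *Hsd17b7*, *Ebp* and *Dhcr7*) held more than 1. By window, 5 of 11 held 2 or more, against 10.1% of all windows. Both *Dhcr7* matches lay in the same 1 of its 3 windows. GGGCGG was also in 9 of 9 genes, against 35.4% of all genes. CACGTG was in 3 (*Hsd17b7*, *Sc5d* and *Dhcr7*), against 6.86%. The stricter TCACNCCAC was in 0 of 9, against 1.23%. The looser TCACNNCAC was in 3 of 9, against 3.63%, and these 3 stretches follow with the match in capitals. In *Msmo1* its first base is the last base of a CCAAT. The *Msmo1* and *Dhcr7* stretches also overlap a GENCODE exon of their gene.
Msmo1, chr8:64733652-64733680, minus strand: cacggaccaaTCACTGCACggcgaaggca
Hsd17b7, chr1:169969304-169969332, minus strand: tcggcctatcTCACCTCACccggtctggg
Dhcr7, chr7:143823259-143823287, plus strand: ggaaaagggcTCACTTCACcttatagctc

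These matches describe letters in a window and not binding. Of the genes upstream of squalene epoxide, 6 of 10 had a window and 5 of those 6 held CCAAT. Of the sterol sensing and uptake genes, 6 of 9 had a window and 5 of 6 held it.

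Levels are given as scaled TPM, the deposited TPM divided by a size factor per sample, and are listed in the order of replicates 1, 2 and 3. TPM is a level per length of transcript, so it can be compared between genes. Fold changes are of Npc1-/- against WT on the log2(scaled TPM + 0.5) scale. An exact permutation test of 3 against 3 cannot go below p = 0.1, so it cannot pass 0.05 for any gene here.

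*Lss* encodes lanosterol synthase, which folds squalene epoxide into the ring system of lanosterol. It stood at 34.7, 36.4 and 36.3 scaled TPM in WT replicates 1, 2 and 3 and at 48.3, 43.5 and 42.3 in Npc1-/- samples. The WT samples were close together and the lowest Npc1-/- sample was above all of them. The means were 35.8 ± 0.937 and 44.7 ± 3.16 (SD, n = 3 each). The log2 fold change was 0.31 (SE 0.0850, adjusted p = 0.0939 by limma).

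*Cyp51* encodes the cytochrome P450 that takes a methyl group off lanosterol. It had the highest level of the 9 genes, with 85.9, 86.9 and 78.5 scaled TPM in WT and 113.6, 105.7 and 90.8 in Npc1-/- samples. Npc1-/- replicate 3 was only slightly above WT replicate 2, and the groups did not overlap. The log2 fold change was 0.30 (SE 0.11, adjusted p = 0.162 by limma).

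*Tm7sf2* encodes a sterol reductase that removes the double bond which *Cyp51* leaves. Its levels were 19.5, 18.5 and 17.9 scaled TPM in WT and 25.4, 27.6 and 23.0 in Npc1-/-. The WT values were close together and all Npc1-/- values lay above them. Its log2 fold change of 0.43 (SE 0.0960) had the lowest adjusted p of the 9, 0.0662 by limma. Without Npc1-/- replicate 3 it was called, with a log2 fold change of 0.49 and an adjusted p of 0.0493 by limma. That fit called 486 of the 15362 genes tested in it. Leaving out any other single sample did not bring *Tm7sf2* to be called.

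*Msmo1*, *Nsdhl* and *Hsd17b7* encode the oxidase, the decarboxylating dehydrogenase and the ketoreductase that work in turn to remove the methyl pair left on the first ring. *Msmo1* had 70.7, 57.9 and 58.5 scaled TPM in WT and 92.7, 92.0 and 75.5 in Npc1-/- samples. WT replicate 1 was the highest of its group and Npc1-/- replicate 3 the lowest of its own, still without overlap. The log2 fold change was 0.47 (SE 0.12, adjusted p = 0.0866 by limma).

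*Nsdhl* had 28.3, 27.9 and 18.4 scaled TPM in WT and 35.1, 32.2 and 26.1 in Npc1-/- samples. It was the single member whose groups overlapped, since Npc1-/- replicate 3 was below WT replicates 1 and 2. The means were 24.9 ± 5.61 and 31.1 ± 4.59 (SD, n = 3 each), and the log2 fold change was 0.33 (SE 0.19, 95% interval -0.11 to 0.78, adjusted p = 0.359 by limma). Leaving out WT replicate 3 took it to 0.13, and leaving out Npc1-/- replicate 3 took it to 0.45.

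*Hsd17b7* had the lowest level of the 9 genes and the largest log2 fold change. Its levels were 10.5, 9.77 and 10.2 scaled TPM in WT and 17.5, 13.4 and 13.9 in Npc1-/- samples. WT samples were close together, while Npc1-/- replicate 1 stood above the other two of its group. The log2 fold change was 0.53 (SE 0.12, 95% interval 0.24 to 0.81, adjusted p = 0.0691 by limma).

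*Ebp*, *Sc5d* and *Dhcr7* act late in the pathway. *Ebp* encodes an isomerase that shifts a double bond within the second ring, and it showed the smallest difference. It stood at 29.3, 26.2 and 28.9 scaled TPM in WT and at 35.9, 31.9 and 32.1 in Npc1-/- samples. The groups did not overlap, with a log2 fold change of 0.24 (SE 0.0910, adjusted p = 0.184 by limma).

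*Sc5d* encodes a desaturase that adds a double bond to the second ring. Its levels were 44.5, 47.9 and 46.0 scaled TPM in WT and 55.3, 54.2 and 59.3 in Npc1-/- samples. It was the only member that was highest in Npc1-/- replicate 3. The log2 fold change was 0.28 (SE 0.0801, adjusted p = 0.10 by limma).

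*Dhcr7* encodes the reductase that makes cholesterol from its immediate precursor, and its loss in people causes Smith-Lemli-Opitz syndrome. It had 41.4, 37.7 and 31.1 scaled TPM in WT and 52.2, 52.5 and 42.7 in Npc1-/- samples. Replicate 3 was the lowest of its group in both genotypes, and WT replicate 1 came close to Npc1-/- replicate 3 without reaching it. The log2 fold change was 0.42 (SE 0.14, adjusted p = 0.134 by limma).

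**Figure D1:**
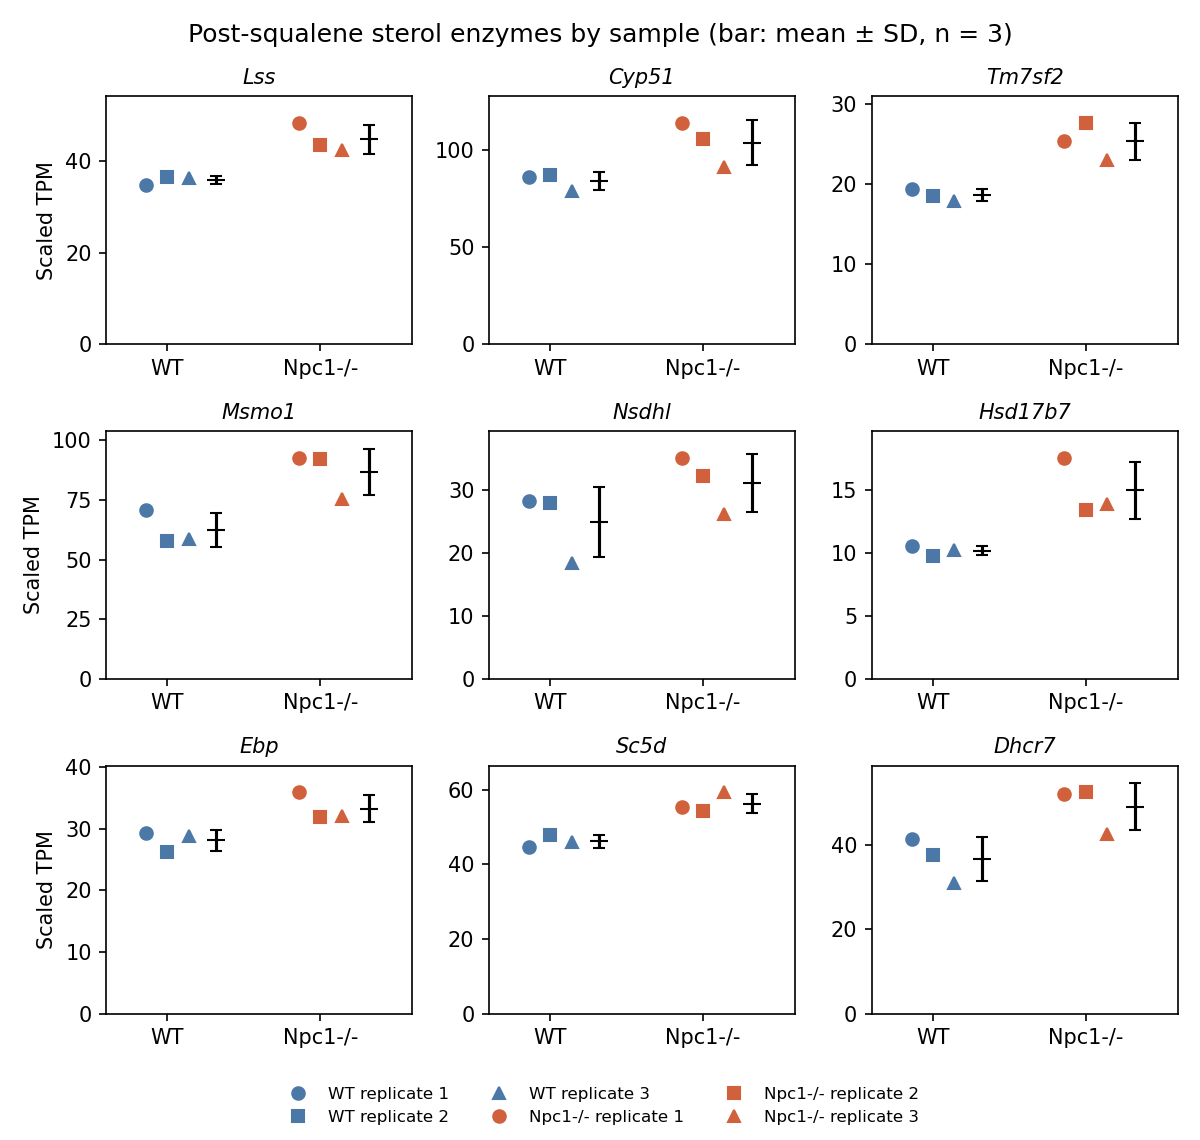
Scaled TPM of the 9 enzymes on linear axes from 0, with 1 point per sample (blue WT, orange Npc1-/-; circle, square and triangle are replicates 1, 2 and 3) and a bar for the mean ± SD (n = 3). The Npc1-/- points sit above all WT points for every enzyme except *Nsdhl*, where Npc1-/- replicate 3 at 26.1 is below WT replicates 1 and 2.

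The order of the levels was the same in both genotypes: *Cyp51*, *Msmo1*, *Sc5d*, *Dhcr7*, *Lss*, *Ebp*, *Nsdhl*, *Tm7sf2* and *Hsd17b7*. In WT the ranges over samples of *Dhcr7* and *Lss*, of *Ebp* and *Nsdhl* and of *Nsdhl* and *Tm7sf2* overlapped. Compared within each WT sample, *Nsdhl* was always above *Tm7sf2*, while the order of the other pairs varied. In Npc1-/- cells the ranges of the same pairs overlapped, and so did those of *Cyp51* and *Msmo1*. Within each Npc1-/- sample *Cyp51* was above *Msmo1*, *Dhcr7* above *Lss* and *Nsdhl* above *Tm7sf2*, while the order of *Ebp* and *Nsdhl* varied. Summed over the 9 genes, the scaled TPM was 364.9, 349.1 and 325.8 in WT replicates 1, 2 and 3. It was 476.1, 453.0 and 405.6 in Npc1-/- replicates 1, 2 and 3, so each Npc1-/- sum exceeded each WT sum. Of the 9 genes, 6 were highest in Npc1-/- replicate 1, 2 in Npc1-/- replicate 2 and 1 in Npc1-/- replicate 3.

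Whether any enzyme moved apart from the rest was examined with each gene's log2 level minus the mean of the other 8 in the same sample. This value does not depend on the scaling by size factors, except through the pseudocount. Its difference between genotypes lay between -0.15 (*Ebp*) and 0.18 (*Hsd17b7*). The genotypes overlapped for all 9 genes, and the exact permutation test (two-sided, 9 genes) gave p between 0.2 and 0.9. For *Cyp51*, 1 Npc1-/- sample at 1.47 lay barely above the lowest WT sample, also at 1.47, and with quantile normalization or a pseudocount of 0.1 the *Cyp51* groups no longer overlapped, the other 8 still doing so. Taken over all genes tested against the mean of the 9 enzymes, 52.3% did not overlap. That mean log2 level was itself higher in Npc1-/- samples (5.30 to 5.52) than in WT samples (4.96 to 5.13). A gene that did not change thus moves down on this measure, so the 52.3% is not a like background for the 9. *Nsdhl* varied most within WT (SD 0.303) because of WT replicate 3 at -0.81.

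The size of the difference depended on what the libraries were scaled to. TPM as deposited sums to the same total in each sample, and in it the median log2 fold change of all genes was -0.33. *Cyp51*, for one, stood at 111.3, 96.1 and 81.5 TPM in WT and at 125.2, 90.3 and 66.0 TPM in Npc1-/- samples, with overlap. The 9 genes together took 0.0473%, 0.0386% and 0.0338% of all TPM in the WT samples. Their share was 0.0525%, 0.0387% and 0.0295% in the Npc1-/- samples. By log2 fold change on that scale, *Hsd17b7* (0.17), *Msmo1*, *Tm7sf2* and *Dhcr7* were above 0. *Lss* (-0.06), *Cyp51* (-0.07), *Nsdhl* (-0.03), *Ebp* (-0.13) and *Sc5d* (-0.09) were below it, and the median of the 9 was -0.03. Measured from the all-gene median, the 9 enzymes lay between 0.20 and 0.49 higher on that scale, and between 0.23 and 0.52 higher with size factors. A factor per sample shifts all genes alike, so it can alter this distance only through the pseudocount, and the likeness is no separate evidence. TPM was also divided by the geometric mean of *Olig1*, *Olig2* and *Sox10*, transcription factors of the oligodendrocyte lineage. The log2 fold changes of the 9 were then 0.20 to 0.49, and lay 0.23 to 0.51 above the all-gene median. With this scaling 7 of 9 separated the genotypes, against 6.23% of all genes. That scaling was chosen after the data were seen. How much RNA each cell held was not measured, so a level here is a share of the library and not an amount per cell.

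**Figure D2:**
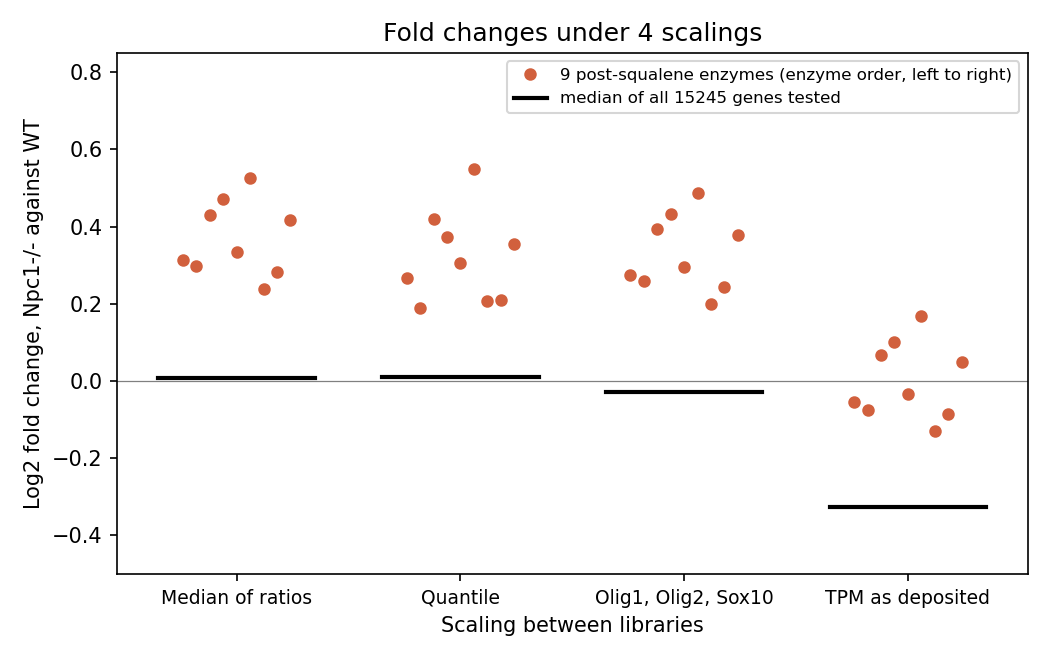
Log2 fold change of Npc1-/- against WT under 4 scalings between libraries, with 1 orange point per enzyme (left to right in pathway order from *Lss* to *Dhcr7*) and a black line at the median of all genes tested. The points are above the line under every scaling, while with TPM as deposited both shift down and 5 of the 9 points fall below 0. A factor per sample moves points and line alike, so apart from the quantile scaling their distance can change only through the pseudocount.

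The genes of the first stretch of the pathway, from *Acat2* to *Sqle*, showed the same direction. All 10 had a fitted log2 fold change above 0 (0.11 to 0.49) and none was called, with 6 of 10 at an unadjusted p below 0.05 and 5 of 10 separated, Npc1-/- above WT (10.6% and 13.3% of all genes tested). The median was 0.30, against 0.33 for the 9 enzymes and 0.01 for all genes tested.

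*Sqle*, which makes the squalene epoxide that *Lss* uses, had 59.8, 53.6 and 50.2 scaled TPM in WT and 85.5, 80.0 and 65.7 in Npc1-/- samples. Its groups did not overlap, with a log2 fold change of 0.49 (SE 0.12, adjusted p = 0.0812 by limma). Without Npc1-/- replicate 3 it was called (adjusted p = 0.0448 by limma), as the single gene of the 10. That fit called 486 of 15362 genes, and leaving out any other single sample called none of the 10. The list summed to 1237 to 1382 scaled TPM in WT samples. In Npc1-/- samples it summed to 1442 to 1703.

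Of the other genes between lanosterol and cholesterol, 3 were tested and none was called, with fitted log2 fold changes from -0.05 to 0.29. *Lbr*, a nuclear membrane protein with the same reductase activity as *Tm7sf2*, had 7.79, 8.84 and 7.32 scaled TPM in WT and 6.61, 8.11 and 8.39 in Npc1-/- samples. Its log2 fold change was -0.05 (SE 0.13, 95% interval -0.35 to 0.25, adjusted p = 0.861 by limma).

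The 9 sterol sensing and uptake genes were mixed: 5 had a fitted log2 fold change above 0 and 4 below it (-0.26 to 0.53, median 0.12), and none was called. *Insig1*, which holds the SREBP complex back and is itself a target of SREBP, had 28.5, 24.5 and 25.1 scaled TPM in WT and 41.0, 39.1 and 33.4 in Npc1-/- samples. The groups did not overlap, with a log2 fold change of 0.53 (SE 0.11, adjusted p = 0.0602 by limma). Without Npc1-/- replicate 3 it was called (adjusted p = 0.0421 by limma), as the single gene of the 9. That fit called 486 of 15362 genes, and leaving out any other single sample called none of the 9.

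*Srebf2*, the SREBP gene most tied to cholesterol synthesis, overlapped between genotypes at 58.6, 57.3 and 52.4 scaled TPM in WT and 69.1, 56.9 and 60.8 in Npc1-/- samples. Its log2 fold change was 0.15 (SE 0.10, adjusted p = 0.453 by limma). Of the 9 genes, 2 had groups that separated with Npc1-/- above WT, *Insig1* among them, and with 13.3% of all genes doing so this count is near the background.

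**Figure D3:**
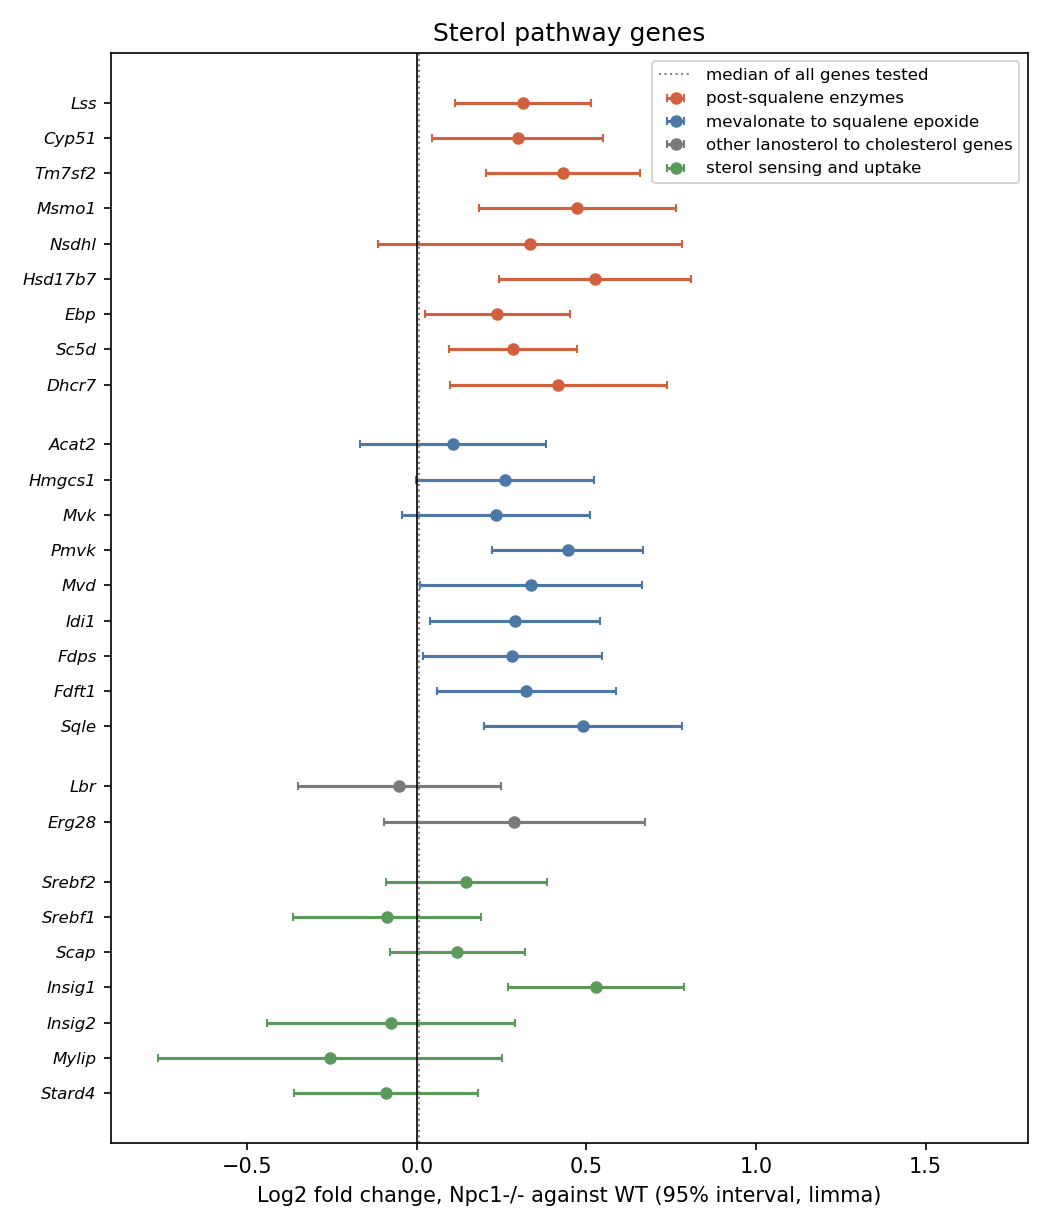
Fitted log2 fold change of Npc1-/- against WT with its 95% interval (limma, 3 samples per group) for the 9 enzymes and for genes of the other sterol lists, with a dotted line at the median of all genes tested. The intervals of 8 of the 9 enzymes exclude 0, *Nsdhl* being the exception.

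The genes whose profile over the 6 samples was nearest to the mean profile of the 9 enzymes were found by the root mean square distance of centred log2 values, over 9141 genes whose TPM averaged 5 or more. The 5 nearest included *Mag*, a myelin glycoprotein (0.03), *Atp9a*, a phospholipid flippase (0.04), *Atp5g1*, a subunit of ATP synthase (0.04), and *Rasa3*, a GTPase-activating protein (0.04). The median distance of all genes ranked was 0.25. Of the 20 genes of the other sterol lists that could be ranked, 6 were among the nearest 100 and *Fdft1*, squalene synthase, came first of them at rank 17.

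Markers of the cells that the purification could hold differed in level between genotypes for several lists, so they are given beside the enzymes. Fewer cells of a type and less RNA per cell cannot be told apart in bulk samples. All 6 microglial markers were lower, with the highest Npc1-/- sample under the lowest WT sample (true of 14.2% of all genes), and *Tmem119* was called. Their summed scaled TPM was 179.9 to 281.2 in WT and 83.1 to 153.2 in Npc1-/- samples. All 5 endothelial markers also separated downwards, with sums of 447.1 to 647.1 in WT and 317.1 to 377.3 in Npc1-/- samples, none called. Of 4 pericyte markers, 3 did so (sums 248.6 to 361.9 and 146.2 to 194.1, none called).

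Astrocyte markers were lower in 5 of 6, and in these 5 every Npc1-/- sample was below every WT sample (true of 14.2% of all genes). *Gfap* was higher, at 81.1 to 100.2 scaled TPM in WT and 111.6 to 271.5 in Npc1-/- samples, and none of the 6 was called. The sums overlapped (362.3 to 442.9 in WT and 276.8 to 478.2 in Npc1-/-), but they include *Gfap* and do not stand for the other 5. All 6 neuronal markers had a fitted log2 fold change above 0 (true of 51.0% of all genes). *Nefl* and *Nefm* were called, against 0.400% of all genes called as higher. Only these 2 separated (13.3% of all genes did so with Npc1-/- above WT), while *Rbfox3*, *Snap25*, *Syt1* and *Stmn2* overlapped. The 6 neuronal markers summed to 73.2 to 97.1 in WT and 119.8 to 158.8 in Npc1-/- samples, which does not stand for each of them. No marker of these lists was at 0 in any sample. The part of these cells in the enzymes' differences was not tested.

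Within the oligodendrocyte lineage none of the 16 markers was called. The 5 OPC markers summed to 436.0 to 596.7 in WT and 310.5 to 586.6 in Npc1-/- samples, with 3 of 5 below 0. The 5 markers of immature oligodendrocytes summed to 1837 to 3000 and to 2681 to 5597, but this sum is mostly *Bcas1* (means of 2247 and 3845) and does not stand for the list. Of the 5, 3 had a fitted log2 fold change below 0, with a list median of -0.14. *Tcf7l2* (-0.45) and *Itpr2* (-0.38) separated with Npc1-/- below WT (true of 14.2% of all genes). The 6 markers of mature oligodendrocytes summed to 173998 to 245364 and to 219858 to 433792, with 5 of 6 above 0 and a list median of 0.39. That sum is mostly *Mbp* and was highest in Npc1-/- replicate 3, the sample in which the summed enzymes were lowest of the Npc1-/- group. *Mag* (0.42) was the single gene of these 6 that separated, with Npc1-/- above WT (true of 13.3% of all genes). *Olig1*, *Olig2* and *Sox10* had log2 fold changes of 0.04, 0.06 and 0.02 with adjusted p between 0.878 and 0.937 by limma, and the RNA thus held the lineage's defining factors at overlapping levels. The part of maturation in the enzymes' differences was not tested.

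**Figure D4:**
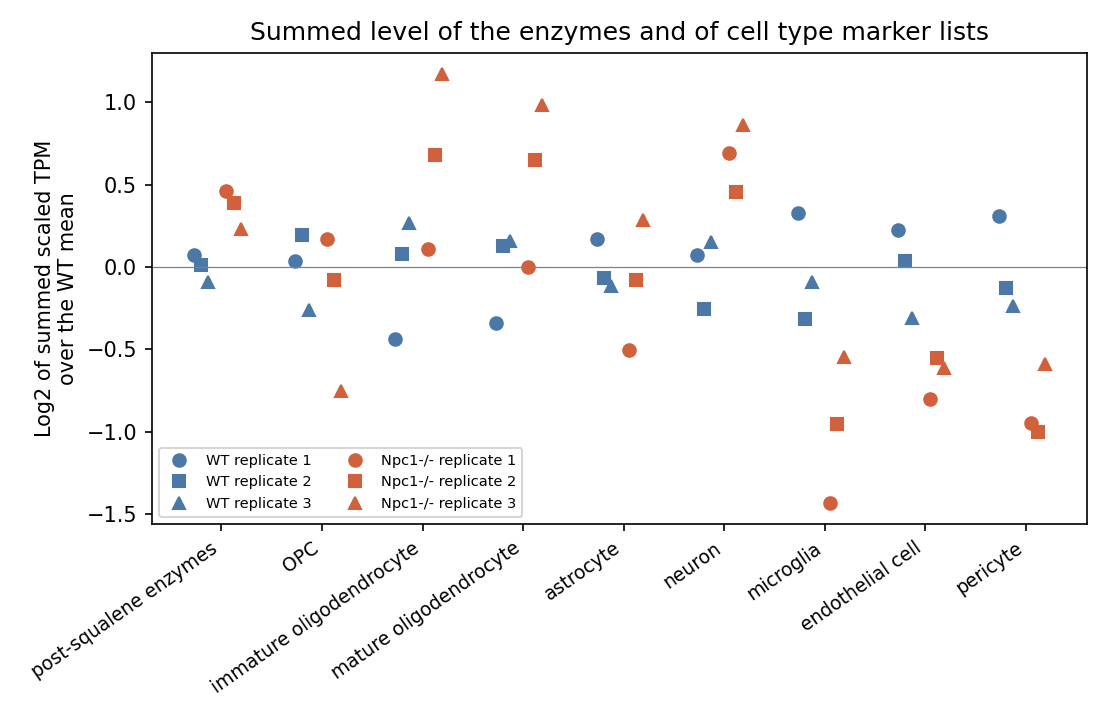
Summed scaled TPM of the 9 enzymes and of 8 marker lists in each sample, as log2 of the ratio to the WT mean of the same sum (0 is the WT mean; blue WT, orange Npc1-/-; circle, square and triangle are replicates 1, 2 and 3). The Npc1-/- points of the enzymes and of the neuron list are all above the WT points, while those of microglia, endothelial cells and pericytes are all below.

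The library checks that touch these values are few. *Npc1* was at 41.1 to 45.5 scaled TPM in WT and at 3.72 to 5.17 in Npc1-/- samples. Depth, read from the steps of low FPKM values, was 40000000 to 50000000 fragments per sample. At that depth the lowest member value, *Hsd17b7* in WT replicate 2, rested on 289 fragments per kilobase, a counting error of 5.88% for 1 kilobase of transcript. Npc1-/- replicate 3 alone held *Xist* RNA, at 21.4 scaled TPM, against at most 0.0096 in the other samples. The study's methods say that male and female mice were used in about equal numbers, without the sex of each sample. The part of sex in the enzymes' differences was not tested. Without Npc1-/- replicate 3 the X-linked *Ebp* had a log2 fold change of 0.26 in place of 0.24, and the X-linked *Nsdhl* 0.45 in place of 0.33. All 9 enzymes then separated the genotypes, against 20.5% of all genes in the same 5 samples. *Tm7sf2* was the only one of the 9 called, in a fit that called 486 of 15362 genes.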

How the data were processed

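Poly(A) RNA of O4-purified cells in 3 WT and 3 Npc1-/- samples was sequenced as paired ends. The study's methods name bbduk, STAR on GRCm38, featureCounts and a test for counts. The submitters' processing notes list cutadapt 2.3, FastQC 0.11.8, STAR 2.7.8a, RSEM 1.3.3 and MultiQC 1.7. Which of them made the deposited tables is not given in the sources used here. The authors deposited TPM (per length, the same total in each sample) and FPKM (per kilobase and library size) for 55492 genes, with 2 decimals. Neither table holds counts, and many genes have more than 1 transcript, so counts were not rebuilt and no count model was used.

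TPM was divided by median-of-ratios size factors over 18690 genes (1.04 to 1.30 in WT, 0.727 to 1.10 in Npc1-/-), 0.5 was added and log2 taken. Genes whose TPM averaged 0.5 or more (15245) went into limma 3.58.1 (R 4.3.3, eBayes with trend, genotype as the only factor, Benjamini-Hochberg adjustment, two-sided). A gene was called where its adjusted p was under 0.05 and its log2 change 0.1 or more either way. Depth was found from the steps of low FPKM in genes with a single transcript. The model was tested on simulated data with a log2 change of 1.5 in 200 genes. It recovered 86% of them, and 9 unchanged genes were called. Changes as small as those of the enzymes were not simulated. The depth step was tested on 3 simulated libraries, with a largest error of 0.6%. Gene positions came from GENCODE M21, and promoter windows from RefSeq. Tables were made in Python 3.11.15 (pandas 2.3.3, numpy 2.4.6 and scipy 1.17.1), and plots with matplotlib 3.10.9.

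The members and lists were chosen with earlier results of these data known. All 9 members were described, with a fixed few genes of the other lists (*Sqle*, *Lbr*, *Srebf2* and *Insig1* among them), any called gene of those lists, and the 5 genes nearest in profile. Some genes that this rule names are not reported here. *Fdft1* and the other genes named outside that rule were named after their values were seen. The alternatives tried are given below with their effect. Per the labels each sample came from a mouse, and the study's methods call the samples biological replicates without giving the number of mice.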

Additional observations from a re-analysis of the deposited data

How the results depend on the processing

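Over 19 alternatives the 9 enzymes gave 171 log2 fold changes, of which 159 kept their direction and side of the threshold, 7 came to be called and 5 turned in direction. All 5 that turned did so on TPM as deposited (*Lss* -0.0552, *Cyp51* -0.0740, *Nsdhl* -0.0324, *Ebp* -0.129, *Sc5d* -0.0863). There the median of the 9 was -0.0324 and 924 genes were called (54 higher, 870 lower). Of the 9 enzymes, 0 separated with Npc1-/- above WT on that scale, against 2.58% of all genes. That scale lacks the size factors by construction. Relative to the median of all genes, the enzymes lay between 0.13 and 0.59 higher under every alternative run. Alternatives that change only the factor per sample could alter this distance through the pseudocount alone. With only genes averaging 5 TPM or more (9150 tested), 447 genes were called, among them 1 of the 9 enzymes (*Tm7sf2*, adjusted p = 0.0496 by limma), 1 mevalonate gene (*Pmvk*) and 1 sensing gene (*Insig1*). Over all genes, 21 were called with no filter, 240 with quantile normalization (96 higher, 144 lower), 192 with size factors from genes averaging 5 TPM or more (73 higher, 119 lower), 42 without the trend and 13 (9 higher, 4 lower) with scaling to *Olig1*, *Olig2* and *Sox10*. The last, and a curve on transcript length (114 genes, 0 of 9 enzymes), were chosen after seeing the data. The causes were not tested.

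Leaving out each sample in turn, the count over all genes ran from 4 to 486, the median of the 9 from 0.30 to 0.45, the enzymes, the mevalonate genes and the sensing genes called from 0 to 1 each, and the enzymes whose level relative to the other 8 did not overlap from 1 to 3 (fewer samples make this easier). That last count was 1 with quantile normalization and 1 with a pseudocount of 0.1. With a replicate block in the fit, 2011 genes were called, with 5 of the 9 enzymes (*Cyp51*, *Tm7sf2*, *Msmo1*, *Hsd17b7* and *Dhcr7*, lowest adjusted p = 0.0256 by limma), 4 mevalonate genes and 2 sensing genes. Deviations of same-numbered samples from their genotype's mean correlated at 0.41, 0.06 and 0.33. Every sample correlated best with its own number, but Npc1-/- replicate 2 barely so (0.06, against 0.05 with WT replicate 3). The deviations within a genotype depend on each other, so these matches are not independent and are a hint from the data only. Nothing in the labels ties same-numbered samples to each other, so the numbers were not taken to pair them. With 3 samples a group, outliers were not tested, and the 95% intervals of the members' fold changes leave room for differences from -0.11 (*Nsdhl*) to 0.81 (*Hsd17b7*).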
